A study of Mus musculus with 2 samples.

Results

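The genes described here were 10 heat shock proteins and chaperones, of 33696 genes counted in single cells of PyMT-M and PyMT-N mouse mammary tumors. They were taken by name, but with earlier results of these data known, and the study itself reports higher Hsp90aa1 in PyMT-M endothelial cells. They comprised the cytosolic HSP90 genes Hsp90aa1 and Hsp90ab1, the cytosolic HSP70 genes Hspa8, Hspa1a and Hspa1b, their partners Hsph1 and Dnajb1, the endoplasmic reticulum gene Hspa5, and the mitochondrial genes Hspd1 and Hspe1. PyMT-M and PyMT-N are cell lines, sublines of the MMTV-PyMT model, in which the mammary tumor virus promoter drives polyoma middle T antigen in mammary epithelium. The study classes PyMT-M tumors as macrophage-rich (High-MAC) and PyMT-N tumors as macrophage-poor (Low-MAC). Both lines were transplanted into the mammary fat pad of female C57BL/6 mice of 6 to 8 weeks, and the labels name no treatment. Tumors were digested with collagenase at body temperature, and CD31+ CD144+ cells were enriched with beads, after depletion of CD45+ and Ter119+ cells, and sorted (the labels name collagenase I, the study's methods collagenase II). Each condition was 1 library that pooled cells of 3 tumors. No difference between the conditions could therefore be tested. All intervals below are 95% intervals. Those of levels and ratios cover counting error only and leave out the spread between cells. Those of shares of cells cover only the draw of cells, taken as independent. None covers the spread between tumors.

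Chaperones hold unfolded or partly folded proteins and use ATP to let them fold or to hand them on. HSP70 proteins bind short exposed stretches, J-domain proteins such as Dnajb1 bring the substrates, and exchange factors such as Hsph1 reset the cycle, after which HSP90 finishes many kinases and receptors. Heat or misfolded protein releases the transcription factor Hsf1, which binds heat shock elements in promoters, whereas stress in the endoplasmic reticulum acts through a separate element. Endothelial cells are exposed to flow, inflammation and poor oxygen supply in tumors, and tumor cells carry a high load of newly made protein.

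Barcodes with at least 200 genes and at most 10% mitochondrial unique molecular identifiers (UMIs, counted molecules) were retained, which left 6719 of 7821 barcodes in PyMT-M and 5607 of 6974 in PyMT-N, with 139729636 and 114669155 UMIs. Cells were placed in classes by marker UMIs, and 20 barcodes, 12 of them among the kept cells, occurred in both libraries. Blood endothelial cells (ECs; at least 5 UMIs of Pecam1, Flt1, Emcn and Kdr) numbered 598 in PyMT-M and 1243 in PyMT-N, with medians of 5195.5 and 12601 UMIs. Levels are given as CPM, the count of a gene summed over the cells of a class and library and scaled to a fixed total of UMIs. Cdh5, an endothelial cadherin that the rule did not use, lay at 965 and 1080 CPM in the blood ECs. Although the labels give the sorted cells as endothelial, cells with at least 3 UMIs of Krt8, Krt18 and Rhox5 and none of Pecam1 or Flt1, called tumor cells here, made up 73.0% of the kept PyMT-M cells (4902) and 59.0% of the PyMT-N cells (3306). In PyMT-M this class rested on Krt8 (268 CPM) and Rhox5 (669 CPM), since Krt18 had 8 UMIs there and Epcam lay at 3.52 CPM. In PyMT-N it rested on Krt8 (807.5 CPM) and Krt18 (1003 CPM), with Epcam at 0.410 CPM. Lymphatic ECs (Prox1, Mmrn1 and Reln) numbered 20 and 207, Col3a1-high fibroblasts 58 and 63, and Ptprc+ cells 488 and 357. Of these, 8 and 174 lymphatic cells were also blood ECs, 12 and 9 fibroblasts were also tumor cells, and 41 and 19 Ptprc+ cells were also tumor cells. A further 6 and 58 Ptprc+ cells were also blood ECs.

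The promoters of 4 members are shown because the levels of these members differed in unlike ways between classes and libraries. RefSeq promoters (build GRCm38.p6, 250 bases before the start site and 50 after it) were held for 7 of the 10 members, and not for Hsp90aa1, Hsp90ab1 or Hspa8. The counts were made on mm39, and no coordinate was converted between builds. The 250 bases before each start site are printed 5′ to 3′ on the strand of the gene. They lie at chr17:34972157-34972406 (minus strand, Hspa1a), chr17:34959239-34959488 (minus strand, Hspa1b), chr1:55087898-55088147 (plus strand, Hspe1) and chr2:34771840-34772089 (plus strand, Hspa5). Capitals mark a 2-unit heat shock element (GAANNTTC) in Hspa1a and Hspa1b, overlapping 3-unit heat shock elements in Hspe1, and an endoplasmic reticulum stress element in Hspa5. The 3-unit element was GAA, TTC and GAA, or TTC, GAA and TTC, each 2 bases apart, and the stress element was CCAAT and CCACG with 9 bases between.
Hspa1a: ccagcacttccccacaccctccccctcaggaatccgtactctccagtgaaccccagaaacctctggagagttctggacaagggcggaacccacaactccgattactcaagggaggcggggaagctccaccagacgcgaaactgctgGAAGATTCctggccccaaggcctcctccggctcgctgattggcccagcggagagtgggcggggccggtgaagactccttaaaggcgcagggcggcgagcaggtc
Hspa1b: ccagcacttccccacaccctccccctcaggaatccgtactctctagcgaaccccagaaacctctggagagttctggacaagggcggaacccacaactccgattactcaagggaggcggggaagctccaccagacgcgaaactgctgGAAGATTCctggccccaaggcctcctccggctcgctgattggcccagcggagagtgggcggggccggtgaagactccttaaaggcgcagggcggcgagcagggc
Hspe1: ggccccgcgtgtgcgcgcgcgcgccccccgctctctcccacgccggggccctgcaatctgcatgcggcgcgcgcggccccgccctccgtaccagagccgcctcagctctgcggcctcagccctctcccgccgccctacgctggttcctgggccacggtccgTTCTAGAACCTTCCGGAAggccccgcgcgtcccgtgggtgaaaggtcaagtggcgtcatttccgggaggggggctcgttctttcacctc
Hspa5: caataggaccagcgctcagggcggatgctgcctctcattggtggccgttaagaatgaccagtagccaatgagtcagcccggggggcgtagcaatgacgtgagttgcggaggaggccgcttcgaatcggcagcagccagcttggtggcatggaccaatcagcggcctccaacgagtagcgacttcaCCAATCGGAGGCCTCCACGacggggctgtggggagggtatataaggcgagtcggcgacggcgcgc

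The Hspa1a and Hspa1b sequences differed at 3 of these 250 bases, and in both the element began 104 bases before the start site (position -104). The 3-unit element was found in 3 of the 7 members, at -89 and -84 in Hspe1, at 37 or 16 in Hsph1, counted from its alternative start sites, and at -144 and -139 in Hspd1, from 1 of its 2 start sites. Hspe1 and Hspd1 are read in opposite directions from the same stretch, and the window of the Hspd1 start site with the elements shared 285 bases with that of Hspe1, the elements included. The window of the other Hspd1 start site shared 4 bases with it and held no element. Among 32851 promoters of the same length, searched on both strands, 0.603% held the 3-unit element. The 2-unit element, which lies inside many 3-unit ones, was found in 5 of the 7 members and in 7.86% of promoters. The endoplasmic reticulum stress element was found in Hspa5 alone among the members, at -65, and in 0.119% of promoters. A match is a run of letters and not a shown binding site.

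Hspa1a and Hspa1b can be told apart in these libraries only where their transcripts differ. Over the whole transcripts (GENCODE M21), 49.3% of the 90-base windows of Hspa1a also occurred in Hspa1b, and 52.3% of those of Hspa1b occurred in Hspa1a. In the last 500 bases, at the end that 3′ libraries are made to read, 0% of the windows were shared. Where the reads of these libraries fell was not examined, and the annotation behind the counts is not stated. The files list them as ENSMUSG00000091971 (Hspa1a) and ENSMUSG00000090877 (Hspa1b).

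In blood ECs, 5 members were at least 1.5-fold higher in PyMT-M than in PyMT-N and 0 were at least 1.5-fold lower. Of the 8995 genes with at least 200 UMIs in these cells, 7.74% were past the same fold on the higher side and 10.7% on the lower side. The members past it were Hsph1, Hspa5, Hspa8, Hsp90aa1 and Hspd1, so they came from the cytosol, the endoplasmic reticulum and the mitochondrion. The heat-inducible pair Hspa1a and Hspa1b lay within 1.5-fold, although Hspa1b was past it on the lower side (log2 ratio -0.62) in cells with genes per cell within 2-fold of the median. The median log2 ratio of the members was 0.55, against -0.02 over all 8995 genes. CPM gives a share of the RNA and not molecules per cell. Together the members made up 6400.4 CPM in PyMT-M blood ECs and 4657 CPM in PyMT-N.

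**Figure D1:**
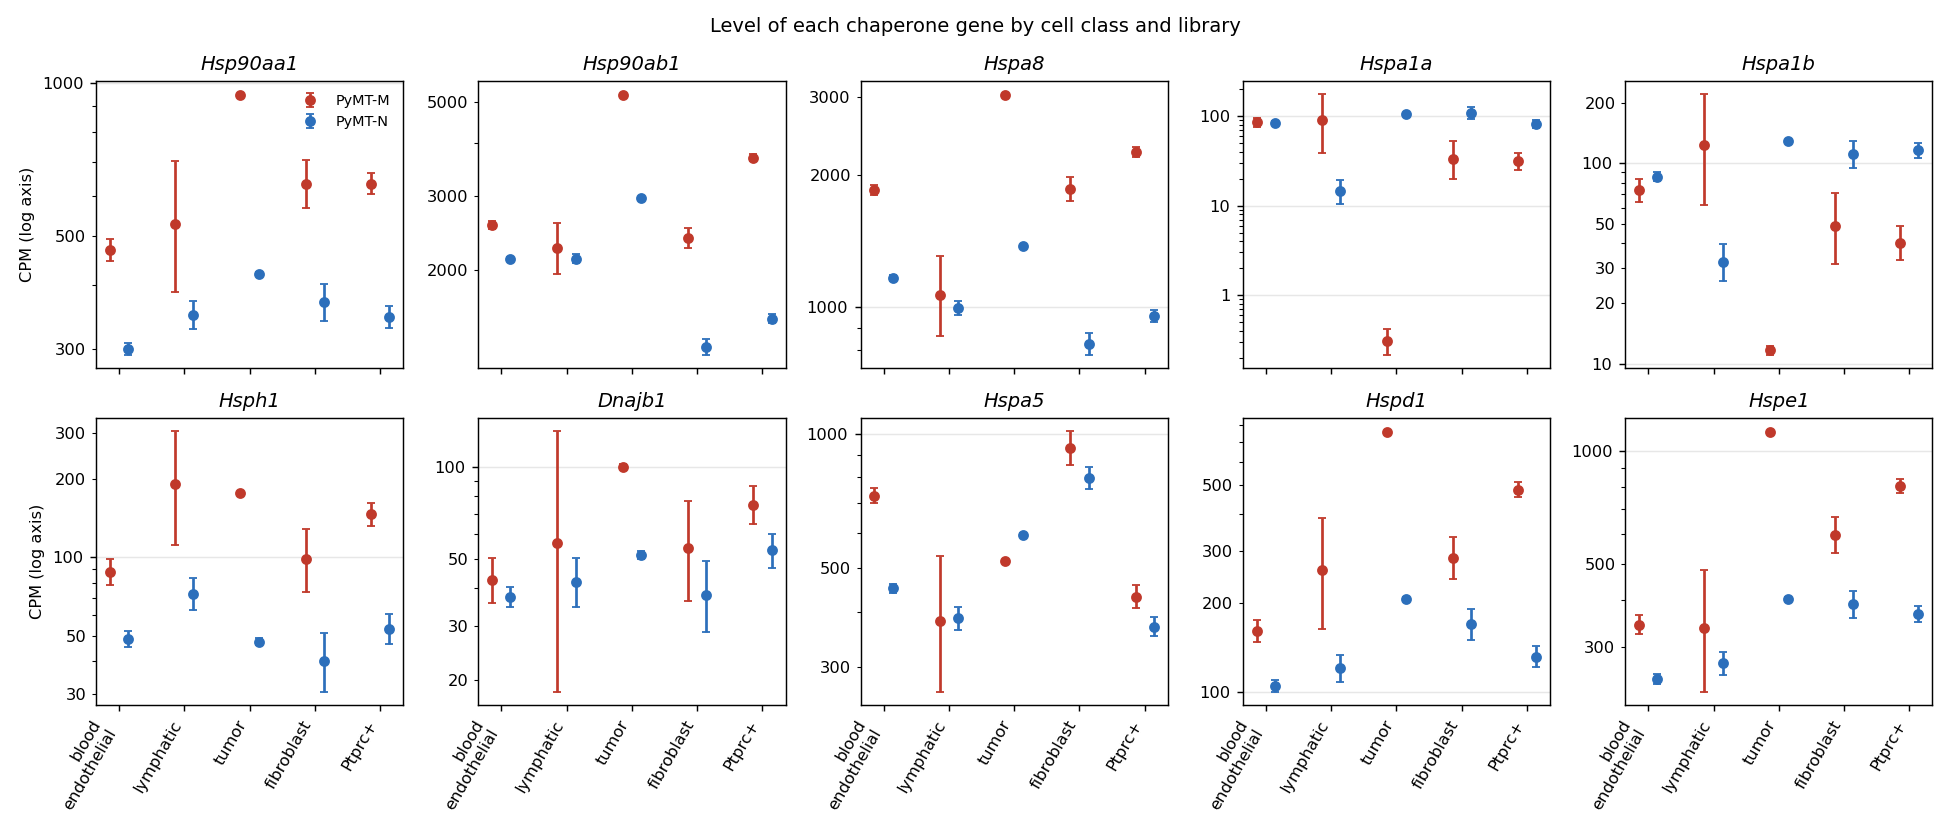
Level of each of the 10 genes in CPM (log axis, which differs between panels) in the 5 cell classes of the PyMT-M library (red) and the PyMT-N library (blue). Points are the CPM of summed UMIs and bars are exact Poisson 95% intervals. Hspa1a lies at 0.306 CPM in PyMT-M tumor cells and between 14.5 and 108 CPM in the 5 PyMT-N classes.

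Hsp90aa1, the stress-inducible HSP90, lay at 468 CPM (445 to 492) in PyMT-M blood ECs and at 299.9 CPM (292 to 308) in PyMT-N, and the log2 ratio was 0.64 (0.56 to 0.72). In tumor cells it lay at 945 CPM in PyMT-M and 421 CPM in PyMT-N. Of the 5 classes, tumor cells held the highest level in both libraries and blood ECs the lowest, although the interval of the 20 PyMT-M lymphatic cells (388 to 702 CPM) took in that of the blood ECs. Between them, PyMT-M Ptprc+ cells (634 CPM), fibroblasts (633 CPM) and lymphatic cells (528 CPM) had overlapping intervals, as had PyMT-N fibroblasts (370.3 CPM), lymphatic cells (349.9 CPM) and Ptprc+ cells (347 CPM). Hsp90ab1, the constitutive HSP90, differed less in blood ECs, at 2566 CPM in PyMT-M and 2133 CPM in PyMT-N, with a log2 ratio of 0.27 (0.23 to 0.30). In tumor cells it lay at 5207 and 2972 CPM. Tumor cells again stood above the other 4 classes in both libraries, and Ptprc+ cells came next in PyMT-M (3695 CPM) but below both endothelial classes in PyMT-N (1537 CPM). However, 41 of the PyMT-M Ptprc+ cells were also tumor cells. The log2 ratio of Hsp90ab1 in Ptprc+ cells, 1.27, ran from 0.20 to 1.55 under other ways of choosing, scaling or averaging cells. Blood ECs (2133 CPM) and lymphatic cells (2131 CPM) of PyMT-N had overlapping intervals. In PyMT-M the intervals of blood ECs (2512 to 2621 CPM) and fibroblasts (2389.7 CPM, 2261 to 2524) overlapped only narrowly, which does not show equal levels. However, 174 of the 207 PyMT-N lymphatic cells and 8 of the 20 PyMT-M ones were also counted as blood ECs. Intervals of these classes are thus not independent, here and for the other members.

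Hspa8, the constitutive HSP70 that also strips clathrin from vesicles, lay at 1844 CPM (1798 to 1890.4) in PyMT-M blood ECs and 1165 CPM (1149 to 1181) in PyMT-N. Its levels were 3034 and 1379.5 CPM in tumor cells, 2255 and 957 CPM in Ptprc+ cells, and 1859 and 826 CPM in fibroblasts. Only in lymphatic cells did the libraries have overlapping intervals, at 1067 and 998 CPM. Hsph1, the HSP110 that exchanges the nucleotide of HSP70, had the highest log2 ratio of all members in blood ECs, 0.86 (0.66 to 1.05). Its level there was 87.9 CPM in PyMT-M and 48.6 CPM in PyMT-N. In PyMT-N its levels in Ptprc+ cells (53.2 CPM), blood ECs, tumor cells (47.5 CPM) and fibroblasts (39.8 CPM) had overlapping intervals. Lymphatic cells stood above blood ECs in both libraries, at 72.7 CPM in PyMT-N and, on 17 UMIs, 191 CPM in PyMT-M. In PyMT-M tumor cells (177 CPM) and Ptprc+ cells (146 CPM) also stood above blood ECs, and fibroblasts (98.6 CPM) had an interval that overlapped theirs. The 41 PyMT-M Ptprc+ cells that were also tumor cells count in the Ptprc+ levels of all members. The Hsph1 log2 ratio in Ptprc+ cells, 1.46, ran from -0.0016 to 1.81 under other ways of choosing, scaling or averaging cells. Dnajb1, an HSP40 that delivers substrates to HSP70, lay at 42.5 CPM (35.8 to 50.1) in PyMT-M blood ECs and 37.4 CPM (34.6 to 40.4) in PyMT-N. These intervals overlapped. Dnajb1 rested on 142 UMIs in the PyMT-M blood ECs, so a difference of this size was not detectable at this depth. In tumor cells it lay at 100.1 and 51.4 CPM and in Ptprc+ cells at 75.0 and 53.2 CPM. In PyMT-N tumor and Ptprc+ cells had overlapping intervals, as had lymphatic cells (42.0 CPM), fibroblasts (37.9 CPM) and blood ECs.

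Hspa5 encodes BiP, the HSP70 of the endoplasmic reticulum. It lay at 728 CPM (699 to 757) in PyMT-M blood ECs and 451 CPM (441 to 461) in PyMT-N, and its log2 ratio was 0.69 (0.62 to 0.76). Its order over the classes differed from that of the HSP90 genes and Hspa8, as fibroblasts, which secrete collagen, held its highest level, 931 CPM in PyMT-M against 799 CPM in PyMT-N. Blood ECs of PyMT-M came next, above tumor cells at 519.5 CPM, whereas in PyMT-N tumor cells, at 595 CPM, stood above blood ECs. Its lowest levels were in lymphatic cells of PyMT-M (382 CPM) and in Ptprc+ cells of PyMT-N (370.1 CPM), and in each library these classes had overlapping intervals. Hspd1 (HSP60) and Hspe1 (HSP10) form the folding chamber of the mitochondrial matrix. In blood ECs Hspd1 lay at 161 CPM (148 to 175) in PyMT-M and 105 CPM (100.5 to 110.2) in PyMT-N, and Hspe1 at 344 and 247 CPM. Their log2 ratios were 0.61 (0.47 to 0.75) and 0.48 (0.38 to 0.57), so Hspe1 fell short of 1.5-fold. Blood ECs held the lowest level of Hspd1 in both libraries, and its interval overlapped that of the lymphatic cells, whereas tumor cells held the highest. In PyMT-M Hspe1 ranged from 1124 CPM in tumor cells through 806 CPM in Ptprc+ cells and 597 CPM in fibroblasts to 344 and 337 CPM in blood ECs and lymphatic cells. In PyMT-N its levels in tumor cells (403 CPM), fibroblasts (389 CPM) and Ptprc+ cells (367 CPM) were closer together, and the interval of fibroblasts (358.7 to 421.8) took in both other values.

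Hspa1a and Hspa1b encode HSP70 proteins that heat induces strongly. In blood ECs Hspa1a lay at 85.8 CPM (76.2 to 96.4) in PyMT-M and 84.0 CPM (79.7 to 88.4) in PyMT-N, and the log2 ratio was 0.03 (-0.16 to 0.21), with a sign that flipped under 5 of 11 other ways of choosing, scaling or averaging cells. Hspa1b lay at 73.3 CPM (64.4 to 83.0) and 85.8 CPM (81.5 to 90.3), a log2 ratio of -0.23 (-0.43 to -0.03). In tumor cells the libraries stood far apart. Hspa1a had 37 UMIs in 4902 PyMT-M tumor cells, 0.306 CPM (0.216 to 0.422), and 8107 UMIs in 3306 PyMT-N tumor cells, 107 CPM (105 to 109.7). It was found in 24 of the PyMT-M tumor cells, 0.490% (exact Clopper-Pearson interval 0.314 to 0.728%), and in 58.1% (56.4 to 59.8%) of the PyMT-N tumor cells. Hspa1b lay at 11.7 CPM in PyMT-M tumor cells and 129 CPM in PyMT-N, and was found in 14.3% and 69.7% of the cells. PyMT-M tumor cells thus had 350.5-fold less Hspa1a, a log2 ratio of -8.45 (-8.96 to -7.99), and a log2 ratio of -3.46 (-3.54 to -3.38) for Hspa1b.

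Within PyMT-M, Hspa1a was 280.4-fold lower in tumor cells than in blood ECs, and Hspa1b 6.26-fold lower. The share of cells with an Hspa1a UMI was 25.3% (21.8 to 28.9%) in PyMT-M blood ECs at a median of 5195.5 UMIs, and 0.490% in tumor cells at a median of 23715.5 UMIs. The PyMT-M tumor cells, although deeper, had the lower share. In the 721 PyMT-M cells of no class, Hspa1a lay at 6.57 CPM and Hspa1b at 14.8 CPM, against 106 and 126 CPM in the 693 PyMT-N cells of no class. PyMT-M fibroblasts held Hspa1a at 33.5 CPM and Hspa1b at 48.4 CPM, and PyMT-N fibroblasts 108 and 111 CPM. PyMT-M Ptprc+ cells held 31.2 and 40.2 CPM, and PyMT-N Ptprc+ cells 82.8 and 116 CPM. Under other ways of choosing, scaling or averaging cells, the Ptprc+ log2 ratios ran from -2.77 to -0.06 for Hspa1a. For Hspa1b they ran from -2.83 to -0.29. PyMT-M fibroblasts and Ptprc+ cells also held the tumor marker Rhox5, at 240 and 395 CPM, against 669 CPM in PyMT-M tumor cells. The part of tumor RNA in the Hspa1a and Hspa1b levels of these classes was not tested.

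Tumor cells had 7 members at least 1.5-fold higher in PyMT-M and 2 at least 1.5-fold lower, where 29.1% and 31.9% of 12553 genes passed the same fold. The members higher in PyMT-M were Hsph1 (log2 ratio 1.90), Hspd1 (1.87), Hspe1 (1.48), Hsp90aa1 (1.17), Hspa8 (1.14), Dnajb1 (0.96) and Hsp90ab1 (0.81). Hspd1, for example, lay at 758 CPM in PyMT-M tumor cells and 207 CPM in PyMT-N, and Hspe1 at 1124 and 403 CPM. The 2 lower members were Hspa1a (-8.45) and Hspa1b (-3.46). Hspa5 lay between, at -0.20, and at 0.01 where mitochondrial, ribosomal-protein and hemoglobin genes were left out of the total. The median of the members was 1.05, and that of all genes was -0.04. In all 11 alternatives the 9 members past 1.5-fold in tumor cells stayed past it on the same side.

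**Figure D2:**
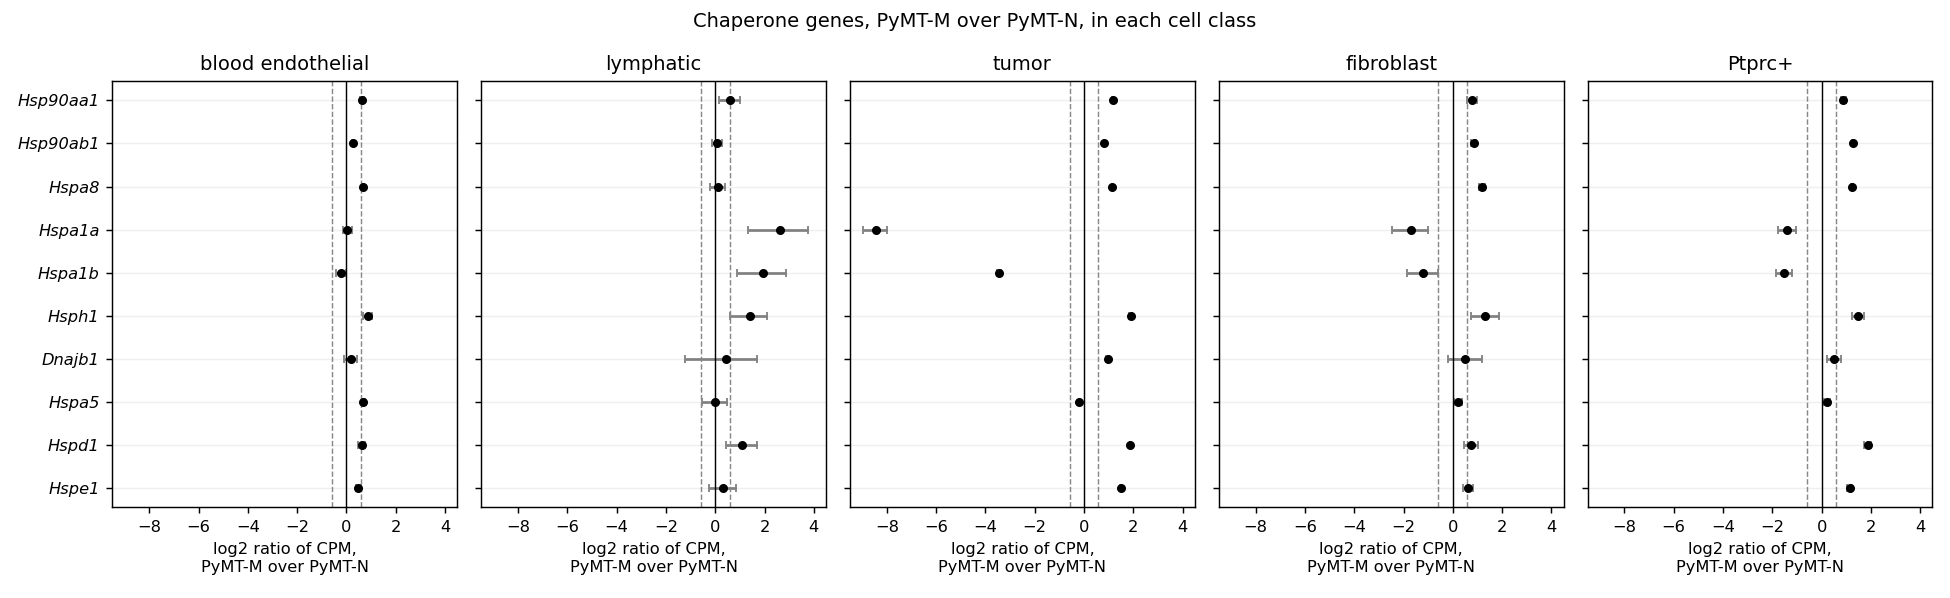
Log2 ratio of CPM, PyMT-M over PyMT-N, of each gene in the 5 cell classes. Points right of 0 are higher in PyMT-M, bars are 95% counting intervals and dashed lines mark 1.5-fold. Hspa1a and Hspa1b lie at -8.45 and -3.46 in tumor cells and at 0.03 and -0.23 in blood ECs.

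The lymphatic cells, fibroblasts and Ptprc+ cells rest on fewer UMIs. In lymphatic cells 5 members were at least 1.5-fold higher in PyMT-M and 0 lower, against 12.5% and 24.5% of 2911 genes. Hspa1a, at 89.9 and 14.5 CPM, and Hspa1b, at 124 and 32.1 CPM, had the highest log2 ratios (2.64 and 1.95), but the PyMT-M values came from 8 UMIs in 2 cells and 11 UMIs in 5 cells. Hsph1, Hspd1 and Hsp90aa1 were the others, and Dnajb1, Hspa1a and Hspa1b were the 3 members under the minimum of 200 UMIs set for all genes. In fibroblasts 6 members were higher and 2 lower, against 11.3% and 23.9% of 1760 genes, and the lower ones were Hspa1a (-1.69) and Hspa1b (-1.20). There 4 members, Hsph1 and the same 3, were under 200 UMIs. In Ptprc+ cells 6 members were higher and 2 lower, against 17.0% and 22.3% of 5630 genes, with Hspd1 at 484 and 132 CPM and Hsp90ab1 at 3695 and 1537 CPM.

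Markers of tumor cells were found in both classes and both libraries. The 7 tumor markers summed to 331 CPM in PyMT-M fibroblasts (3 detected) and 165 CPM in PyMT-N fibroblasts (4 detected), and to 552.5 CPM (4 detected) and 400.1 CPM (6 detected) in Ptprc+ cells. The marker behind the sum differed by subline as in the tumor cells, with Rhox5 at 240.1 and 1.96 CPM and Krt18 at 0 UMIs and 86.2 CPM in fibroblasts, and Rhox5 at 395 and 2.04 CPM and Krt18 at 0 UMIs and 204 CPM in Ptprc+ cells. Krt8, which both sublines carry, lay at 87.5 and 75.8 CPM in fibroblasts and 153 and 183 CPM in Ptprc+ cells. Tumor cells, however, held Krt8 at 268 CPM in PyMT-M and 807.5 CPM in PyMT-N. They held Rhox5 at 669 CPM in PyMT-M and Krt18 at 1003 CPM in PyMT-N. Set against these levels, each of these markers made up a larger share in the PyMT-M fibroblasts and Ptprc+ cells than in those of PyMT-N. Like levels of Krt8 thus do not show like amounts of tumor RNA. The 11 blood endothelial markers summed to 169 CPM in PyMT-M Ptprc+ cells and 853 CPM in PyMT-N, with all 11 detected in both. The part of these markers in the member ratios was not tested. Among cells with no UMI of markers of other classes, an alternative added after the data were seen, Ptprc+ cells (276 and 96) had 0 members higher and 1 lower, against 14.6% and 8.64% of 706 genes. Fibroblasts (32 and 30) then had 3 higher and 3 lower, against 11.5% and 19.4% of 654 genes, and Hspd1 and Hspe1 turned to log2 ratios of -0.69 and -0.22. In blood ECs pericyte markers differed, with Acta2 at 163 CPM in PyMT-M blood ECs and 2.26 CPM in PyMT-N, and Rgs5 at 63.7 and 2.49 CPM. Tumor cells held Acta2 at 224 and 51.1 CPM, Rgs5 at 0.0579 and 0.132 CPM, and the 5 pericyte markers together at 263 and 311 CPM. In blood ECs the summed level of the 5 pericyte markers was 254 and 8.27 CPM, that of the 9 immune markers 52.0 and 321 CPM, and none of these markers was at 0 in either library. The 7 lymphatic markers summed to 146.5 and 2325 CPM, the 6 fibroblast markers to 58.9 and 21.1 CPM (Lum at 0 in both), the 7 tumor markers, of which the rule for blood ECs itself limited Krt8, Krt18 and Rhox5, to 13.5 and 9.66 CPM (Krt7 and Krt19 at 0 in both), and the 4 hemoglobin genes to 30.2 and 21.6 CPM. Their part in the member ratios was not tested. In blood ECs with no UMI of Krt8, Krt18, Rhox5, Col1a2, Rgs5, Ptprc, Tyrobp or Lyz2, the median log2 ratio of the members was 0.51. That of all genes was -0.02. Cells with lymphatic markers or Acta2 were not left out by this choice.

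Compared with blood ECs of the same library, PyMT-M tumor cells had 7 members at least 1.5-fold higher and 2 lower, against 30.0% and 29.1% of 11324 genes. PyMT-N tumor cells had 2 higher and 0 lower, against 20.9% and 27.5% of 11891 genes. Hspd1 and Hspe1 were higher in tumor cells of both libraries, and their log2 ratios over blood ECs were 2.23 and 1.71 in PyMT-M against 0.98 and 0.71 in PyMT-N. Hspa1b of PyMT-N, at 0.58, lay just under 1.5-fold. Hsph1 was 2.01-fold higher in PyMT-M tumor cells than in their blood ECs, whereas in PyMT-N its levels of 47.5 and 48.6 CPM had overlapping intervals. Hspa5 was lower in tumor cells than in blood ECs in PyMT-M (log2 ratio -0.49) and higher in PyMT-N (0.40).

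Members also differed between cycling and non-cycling cells of the same library. Cycling cells were those with at least 3 UMIs of Mki67 and Top2a, and non-cycling cells those with none. They made up 10.9% and 79.1% of the PyMT-M blood ECs, 8.37% and 83.6% of the PyMT-N blood ECs, 66.1% and 17.0% of the PyMT-M tumor cells, and 4.36% and 83.0% of the PyMT-N tumor cells. Cycling cells were deeper, with medians of 8483 against 4531 UMIs in PyMT-M blood ECs and 18325 against 11875 in PyMT-N. These limits were fixed in UMIs, so having none was weaker evidence of not cycling in the shallower PyMT-M blood ECs. Shares of cycling blood ECs, and ratios between non-cycling blood ECs, are thus not like for like between the libraries. Hsp90aa1 lay at 837 CPM in cycling and 358 CPM in non-cycling PyMT-M blood ECs, and at 565 and 254 CPM in PyMT-N. Hspd1 followed, with log2 ratios of cycling over non-cycling cells of 1.26 (0.98 to 1.54) and 0.88 (0.71 to 1.05). The ratios of Hspe1 were 0.75 (0.55 to 0.95) in PyMT-M blood ECs and 0.38 (0.25 to 0.50) in PyMT-N. Hsp90ab1, Hspa8 and Hspa5 had ratios of at most 0.21 in blood ECs. Hspa1a and Hspa1b went the other way, with ratios of -0.69 and -1.16 in PyMT-M blood ECs and -1.02 and -1.01 in PyMT-N. In PyMT-M tumor cells Hsp90aa1 (0.20) and Hspd1 (0.17) differed less by cycle than in PyMT-N tumor cells (0.92 and 0.70). That difference between the libraries was not tested.

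**Figure D3:**
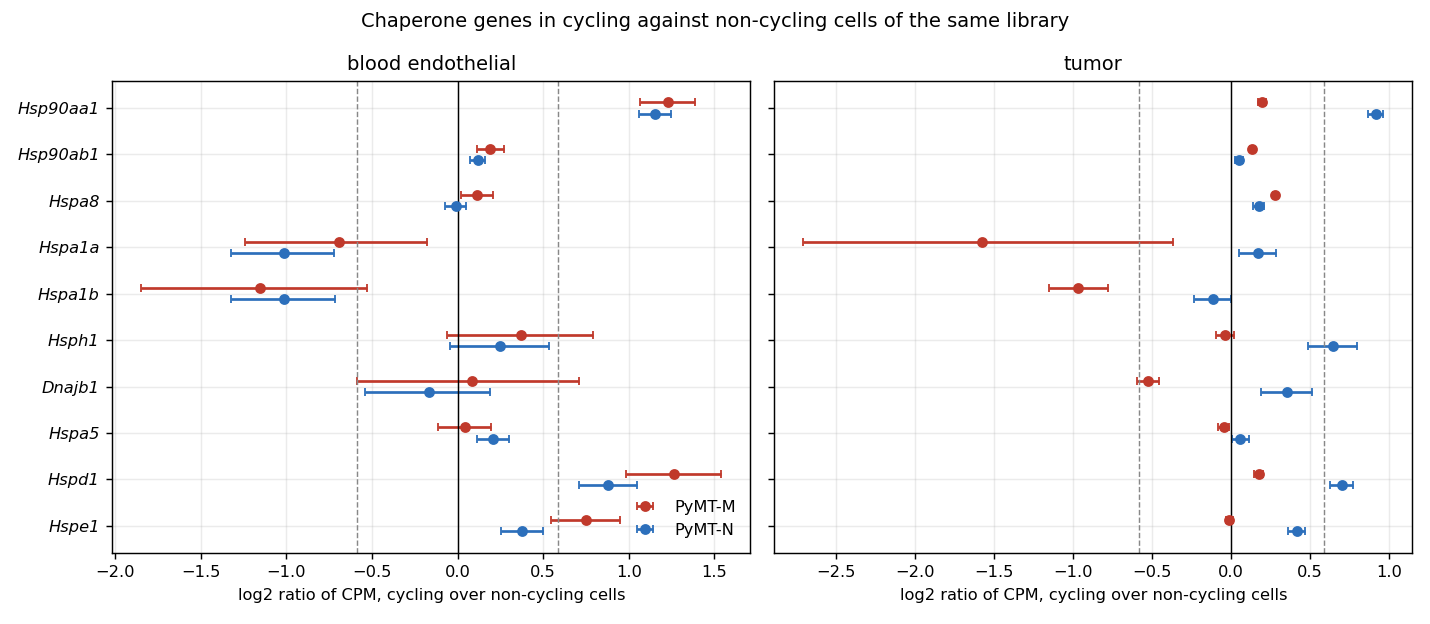
Log2 ratio of CPM of cycling over non-cycling cells for each gene, in blood ECs (left) and tumor cells (right) of PyMT-M (red) and PyMT-N (blue), with 95% counting intervals and 1.5-fold dashed. Hsp90aa1 and Hspd1 lie right of 0 and Hspa1a and Hspa1b left of 0 in the blood ECs of both libraries.

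Among non-cycling blood ECs, 3 members were at least 1.5-fold higher in PyMT-M, namely Hsph1, Hspa5 and Hspa8, where 6.85% of 8084 genes were higher and 9.77% lower. Hsp90aa1 then lay at 358 and 254 CPM, a log2 ratio of 0.49, and Hspd1 at 121 and 91.3 CPM, a log2 ratio of 0.41. Hsph1, Hspa5 and Hspa8 stayed past 1.5-fold in all 11 alternatives, Hsp90aa1 in 9 and Hspd1 in 7. Among non-cycling tumor cells the member log2 ratios had a median of 1.02, with all genes at -0.21.

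The share of blood ECs with a UMI gave the opposite order to the CPM for most members, and the PyMT-M cells were shallower. Hspa5 had a UMI in 85.8% of PyMT-M and 94.3% of PyMT-N blood ECs, Hsp90aa1 in 71.6% and 85.7%, and Hspd1 in 44.8% and 60.5%. After every cell was thinned to 3000 UMIs, which left out 110 PyMT-M and 7 PyMT-N blood ECs, the shares were 82.4% and 67.6% for Hspa5, 61.5% and 51.0% for Hsp90aa1, and 35.0% and 23.8% for Hspd1. Hsph1 was then found in 18.9% and 12.0% of the cells. The thinned shares of Hspa1a (16.2% and 14.8%), Hspa1b (17.6% and 16.1%) and Dnajb1 (9.63% and 9.71%) had overlapping intervals. Hsp90ab1 was found in nearly every blood EC at either depth.

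**Figure D4:**
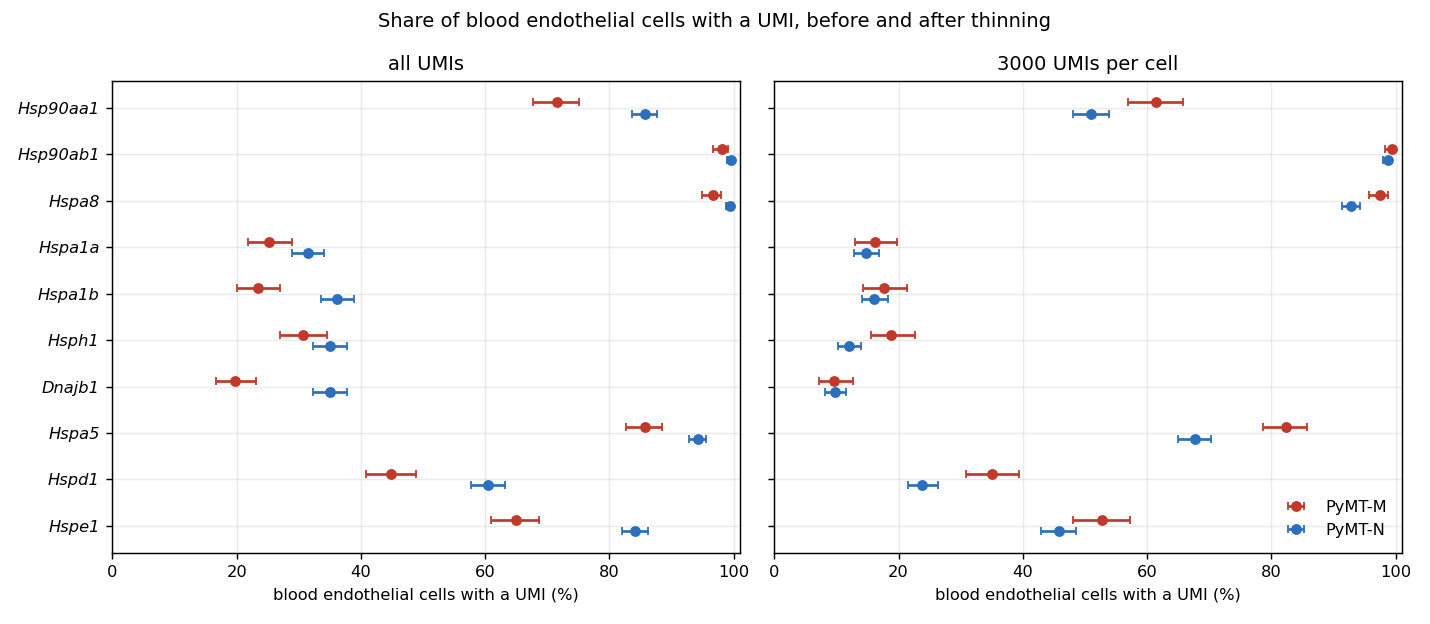
Percent of blood ECs with a UMI of each gene in PyMT-M (red) and PyMT-N (blue), from all UMIs (left) and after thinning each cell to 3000 UMIs (right), with exact Clopper-Pearson 95% intervals. PyMT-N leads for Hspa5 on the left (94.3% against 85.8%) and PyMT-M on the right (82.4% against 67.6%).

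Cells of a class did not share the members evenly. In thinned blood ECs the variance over the mean, which is 1 for pure counting, was 4.88 for Hspa1a in PyMT-N and 1.85 in PyMT-M, and 2.41 and 1.68 for Hspa1b. A single PyMT-N blood EC held 23 of its 3000 UMIs in Hspa1a, and the highest PyMT-M cell held 6. For Hspd1 the variance over the mean was 1.12 and 1.13. In PyMT-N tumor cells Hspa1a was more even, at 1.61. Over single cells Hspa1a and Hspa1b had the highest correlation of the 45 pairs of members in blood ECs, r = 0.38 over 488 thinned PyMT-M cells and r = 0.42 over 1236 thinned PyMT-N cells. The median over the 45 pairs was 0.06 in both. These values describe sparse counts at a fixed depth from 1 library each.

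Across the 4 classes with at least 50 cells in both libraries, and so over 8 values, the members were also set beside the 269 genes with at least 200 UMIs in every value. The members themselves were not held to this minimum. In fibroblasts of PyMT-M and PyMT-N, Dnajb1 rested on 29 and 58 UMIs and Hsph1 on 53 and 61. Hspa1a rested there on 18 and 166 UMIs and Hspa1b on 26 and 170. Likeness was Pearson's r of log2(CPM + 5), given as a description, since the 8 values share 2 libraries. Hspa5 was most like Hsp90b1, the HSP90 of the endoplasmic reticulum (r = 0.96). Hspd1 was most like Rps2 and Tpi1 (both r = 0.99), Hspe1 like Eef1d (0.99), and Hsp90aa1 like the glycolytic gene Ldha and the translation factor gene Eif5a (both 0.97). Hspa8 was most like Ranbp1 (0.98), Hsph1 like Cox4i1 (0.99), Dnajb1 like Rack1 (0.99) and Hsp90ab1 like Psma7 (0.96). Hspa1a and Hspa1b stood apart from the other members, being most like mt-Co3 (0.94 and 0.96) and Malat1 (0.91 and 0.94).

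Other chaperones were counted by group, without the members and among genes with at least 200 UMIs. Of all such genes in blood ECs, 7.74% were at least 1.5-fold higher in PyMT-M and 10.7% lower. In blood ECs, 1 of 19 co-chaperones of HSP90 and HSP70, 1 of 8 mitochondrial, 2 of 17 endoplasmic reticulum, 2 of 14 chaperonin and prefoldin genes, 0 of 12 J-domain and 0 of 4 HSP90 and HSP70 family genes were at least 1.5-fold higher in PyMT-M, and 0 were at least 1.5-fold lower in any of these groups. The median log2 ratios of the groups ran from 0.10 for the co-chaperones to 0.31 for the chaperonin and prefoldin genes. The mitochondrial protease gene Lonp1 (36.5 and 20.2 CPM, log2 ratio 0.85), the chaperonin genes Cct3 (0.78) and Cct7 (0.59), the endoplasmic reticulum genes Creld2 (0.74) and Sdf2l1 (0.62), and the HSP70 nucleotide exchange factor gene Hspbp1 (0.71) were the higher ones. The lowest ratios were those of Unc45a (-0.57), a myosin co-chaperone, Clpx (-0.43), a mitochondrial protease subunit, and the HSP110 relative Hspa4l (-0.43). Other extremes of their groups stayed within 1.5-fold, among them Cacybp (0.42), Fkbp5 (-0.29), Dnajb2 (0.45), Dnaja1 (0.32), Dnaja4 (-0.27), Dnajb4 (-0.21), Dnajb9 (-0.27), Serpinh1 (-0.17), Hspa9 (0.17), Pfdn5 (-0.07) and Vbp1 (0.06).

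In tumor cells 29.1% of all genes were at least 1.5-fold higher in PyMT-M and 31.9% lower. Of 14 chaperonin and prefoldin genes 11 were higher and 0 lower, with a median of 1.16. The chaperonin folds actin and tubulin, and prefoldin brings them to it. Of 8 mitochondrial chaperones 5 were higher and 0 lower (median 0.79), and of 20 co-chaperones 9 were higher and 1, Bag3, lower (median 0.36). Of 6 HSP90 and HSP70 family genes 4 were higher and 1, Hspa12a, lower (median 1.00). Of 17 endoplasmic reticulum chaperones 4 were higher and 6 lower (median -0.18). Cct3 lay at 491 and 186 CPM, the co-chaperone Cacybp at 433 and 102 CPM, and Lonp1 at 58.0 and 19.0 CPM. The disulfide reductase gene Dnajc10, with 27.4 and 66.6 CPM, was the lowest of the endoplasmic reticulum group. Of 12 J-domain genes Dnajc2 and Dnajc21 were higher and 1 was lower (median 0.11), and the lower one was Dnaja4, with 4 UMIs in PyMT-M tumor cells and 1274 in PyMT-N. The factor gene Hsf1 lay at 38.8 CPM in PyMT-M and 19.7 CPM in PyMT-N tumor cells, and at 19.1 and 17.5 CPM in blood ECs, where its intervals overlapped. Of the 3 genes in the heat shock factor group 0 were past 1.5-fold in blood ECs (median -0.16). In tumor cells Hsf1 was past it on the higher side, and Hsbp1, whose product binds Hsf1, was lower (log2 ratio -0.69). The tumor cell genes named here, other than those that also led their groups in blood ECs, were chosen after their values were seen.

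**Figure D5:**
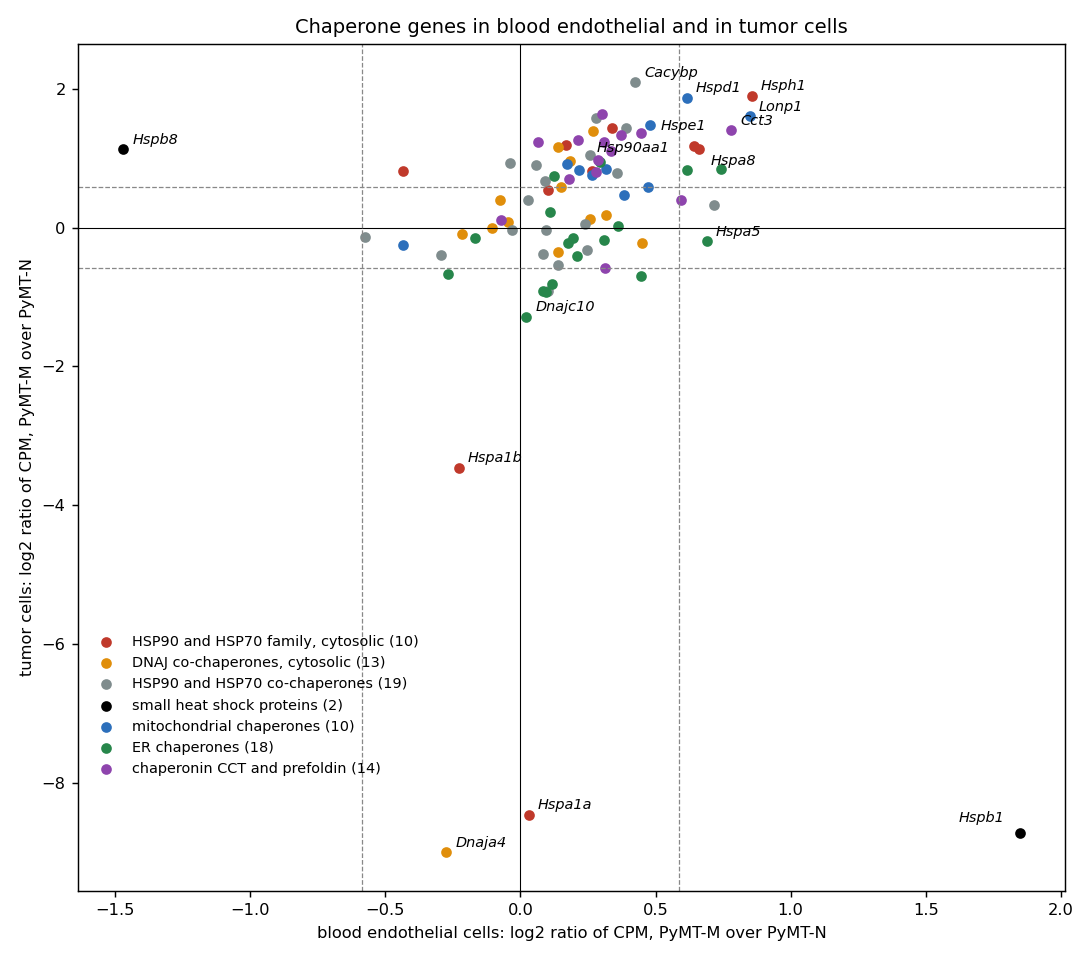
PyMT-M over PyMT-N as a log2 ratio of CPM, in blood ECs (horizontal) and in tumor cells (vertical) for chaperone genes with at least 200 UMIs in both classes, colored by group, with members included and 1.5-fold dashed. Hspa1a, Dnaja4 and Hspb1 lie below -8 on the vertical axis, at 0.03, -0.27 and 1.85 on the horizontal axis.

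Small heat shock proteins, which bind unfolded protein without ATP, had 1 gene higher and 1 lower of 2 in blood ECs, and in tumor cells 1 higher and 2 lower of 5 (Hspb8, and Hspb1 with Hspb2). The shares of all genes higher and lower were 7.74% and 10.7% in blood ECs, and 29.1% and 31.9% in tumor cells. Hspb1 (HSP27) lay at 700.4 CPM (672 to 729) in PyMT-M blood ECs and 194 CPM (188 to 201) in PyMT-N, and at 1.25 CPM and 524 CPM in tumor cells. PyMT-M tumor cells thus held Hspb1, Hspa1a and Dnaja4 at or under 1.25 CPM, while PyMT-M blood ECs held them at 700.4, 85.8 and 8.37 CPM. Hspb8, by contrast, lay at 18.5 and 51.4 CPM in blood ECs and at 69.7 and 31.8 CPM in tumor cells.

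Genes of acute stress were counted in the same way, beside the same shares of all genes. These were 7.74% higher and 10.7% lower in blood ECs, and 29.1% higher and 31.9% lower in tumor cells. In blood ECs, 5 of 11 immediate early genes were at least 1.5-fold higher in PyMT-M and 0 lower (median 0.52), led by Fosb (1.16), Ier3 (0.85) and Egr1 (0.75). In tumor cells 3 of 11 (Jun, Ier3 and Dusp1) were higher and 8 lower (median -2.34), with Fos at 4.25 and 354 CPM, Egr1 at 1.62 and 243 CPM, and Jun the other way at 252 and 0.807 CPM. Of 12 genes of the unfolded protein response, Hspa5 included, 3 were higher and 1, Trib3, lower in blood ECs (median 0.23), with Creld2, Hspa5 and Sdf2l1 the highest. In tumor cells 5 were higher and 3 lower (median -0.04), led by Trib3 (39.2 and 2.45 CPM) and Atf4 (201 and 85.6 CPM). Cell cycle genes were higher in PyMT-M in both classes, 8 of 8 each, with medians of 0.89 and 2.55. The labels give the same digestion for both libraries, and the part of the digestion in any of these levels was not tested.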

How the data were processed

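Cells of PyMT-M and PyMT-N mammary tumors were profiled with a 10x Genomics 3′ kit, 1 library each from 3 pooled tumors. The authors deposited UMI counts, whole numbers per gene and barcode without normalization, which the submitters' processing notes credit to Cell Ranger 8.0.0 on mm39. For the annotation, nothing is stated in the sources used here. The paper's figures, staining and other data were not used here, and 0 columns of per-sample values were left out.

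Barcodes with at least 200 genes and at most 10% mitochondrial UMIs were kept and classed by marker UMIs, so that a cell could hold more than 1 class. Lymphatic cells had at least 3 UMIs of Prox1, Mmrn1 and Reln, fibroblasts at least 3000 CPM of Col3a1 and Ptprc+ cells at least 1 UMI of Ptprc. Blood ECs had at most 1 UMI of Krt8, Krt18 and Rhox5. UMIs were summed per class and library and given as CPM with exact Poisson 95% intervals, and as log2 ratios with the exact conditional binomial interval of 2 counts. Shares of cells have exact Clopper-Pearson intervals and were repeated with each cell thinned to 3000 UMIs. With 1 library per condition there is no replicate check. Called means at least 1.5-fold, and shares of all genes are over genes with at least 200 UMIs in both libraries together. Kept cells had medians of 21262 and 18558 UMIs.

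The members, gene lists and marker lists were chosen with earlier results of these data known. The genes named are the 10 members, the 2 highest and 2 lowest of each chaperone list in blood ECs, the 3 highest of each stress list, and the most alike of the 3 genes nearest to each member. Other genes named, markers aside, were chosen after their values were seen. Scrublet (scanpy 1.11.5) called 3 PyMT-M barcodes (0.0384%), so that it did not work there, and 156 PyMT-N barcodes (2.24%). Doublets were therefore kept, and the 6% with the highest scores were left out as an alternative. Other alternatives changed the limits on genes, mitochondrial UMIs, depth and markers, the total, the centring, the averaging, the fold, cycling cells and cells with markers of other classes. Those markers were Krt8, Krt18 and Rhox5 (tumor), Pecam1 and Flt1 (endothelial), Col1a2 and Rgs5 (fibroblast), and Ptprc, Tyrobp and Lyz2 (Ptprc+). Blood and lymphatic ECs were not told apart by them. Only the log2 ratios and their intervals were tested on simulated data, drawn with pure counting error around the blood EC sums. The simulation held no spread between cells or tumors. Tables were handled with pandas 2.3.3 and numpy 2.4.6 under Python 3.11.15, intervals were computed with scipy 1.17.1, and plots were drawn with matplotlib 3.10.9.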

Additional observations from a re-analysis of the deposited data

Results flagged for a closer look

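Members and related genes were flagged where their ratio of PyMT-M over PyMT-N pointed in opposite directions in 2 cell classes. Hspa1a had a log2 ratio of 2.64 in lymphatic cells and -8.45 in tumor cells, which lie 11.1 apart. Hspa1b had 1.95 and -3.46 in the same classes, 5.40 apart. The PyMT-M lymphatic values rest on 8 and 11 UMIs in 20 cells. Hspb1, a small heat shock protein, had 1.85 in blood ECs and -8.71 in tumor cells, 10.6 apart, and rests on at least 151 UMIs in each library of these 2 classes. With 1 library per condition, these differences between classes were not tested.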

How the results depend on the processing

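Of the log2 ratios of members under alternatives, 361 stayed within their counting interval, 178 moved beyond it, and 11 that had been past 1.5-fold changed sign, all in lymphatic cells, fibroblasts or Ptprc+ cells. In blood ECs the count of members higher in PyMT-M was 3 by the mean over cells (7.87% of all genes), 3 without cycling cells (6.85%) and 0 at 2-fold (2.47%). With genes per cell within 2-fold of the median, 1 member, Hspa1b, was lower (-0.62), as were 13.8% of all genes. In fibroblasts the count higher was 0 in cells of exactly 1 class (11.05% of all genes) and 3 by the mean over cells (10.97%). It was 3 without cycling cells (10.55%), 1 with stricter markers (10.34%), 2 at 2-fold (4.32%) and 3 without markers of other classes (11.47%). Among fibroblasts 1 member was lower by the mean over cells, against 23.35% of all genes, and 1 at 5000 to 20000 UMIs, against 16.36%. In Ptprc+ cells the count higher was 2 by the mean over cells (8.81%), 2 without cycling cells (8.90%) and 0 without markers of other classes (14.6%). In the same order 0, 0 and 1 were lower, against 10.1%, 11.2% and 8.64% of all genes. Tumor cells of PyMT-N over blood ECs had 0 higher at 2-fold, against 13.9% of all genes. Ratios that reversed were, in lymphatic cells, Hspa1b (-0.17, exactly 1 class), Hspd1 (-0.020, no cycling cells) and Hsp90aa1 (-0.035, no markers of other classes). In fibroblasts they were Hspe1 (-0.11) and Hspd1 (-0.71) in cells of exactly 1 class, Hsph1 (-0.039), Hspe1 (-0.30) and Hspd1 (-0.62) with stricter markers, and Hspe1 (-0.22) and Hspd1 (-0.69) without markers of other classes. In Ptprc+ cells Hsph1 turned to -0.0016 without markers of other classes, a choice made after the data were seen. The cause of these shifts was not tested. The share of blood ECs with a UMI, PyMT-M minus PyMT-N, turned positive for most members on thinning to 3000 and 1500 UMIs. It came to 10.5 and 9.38 percentage points for Hsp90aa1, 4.66 and 10.9 for Hspa8, and 1.52 and 1.14 for Hspa1b. For Hspa5 it was 14.7 and 13.9, for Hspe1 6.87 and 4.90, and for Hspd1 11.3 and 2.63. Dnajb1 turned positive only at 1500 UMIs, at 3.72. Hsp90ab1, Hsph1 and Hspa1a, whose unthinned intervals overlapped between the libraries, also turned positive at both depths.

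With a total that held no mitochondrial, hemoglobin or ribosomal-protein genes, the median of all genes went from -0.04 to 0.16 in tumor cells, and from 0.00274 to 0.25 for PyMT-M tumor cells over blood ECs. No paired analysis was possible because each condition was 1 library, and for the same reason no replicate could be left out. Intervals of levels and ratios cover counting error only, without the spread between cells, and are thus too narrow where cells are uneven. Those of shares cover only the draw of cells. Differences between tumors of a pool are unseen. Values in the 20 PyMT-M lymphatic cells, where 3 UMIs are worth 33.7 CPM, are the least certain.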
